A study of Mus musculus with 12 samples.

Results

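Open chromatin of mouse dorsal root ganglia after nerve injury was compared between Silc1-/- and wild-type animals, with 1 deposited list of ATAC-seq peak summits for each genotype. The Silc1-/- injured list holds 35815 summits and the wild-type injured list 43841, together 79656 of the 155267 summits in the 4 lists of the series. All summits of both lists were kept, and each was sorted by whether the other list has a summit within 200 bp, here called a partner. ATAC-seq marks open DNA by letting a transposase insert sequencing adapters where it can reach the DNA, and a summit is the base at which a called peak is highest.

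Each group comprised 3 libraries, labelled as separate replicates, of lumbar L4 to L6 ganglia in which the sciatic nerve had been crushed at mid-thigh with fine forceps. Silc1-/- lacks the long noncoding RNA Silc1 and Silc1+/+ is wild type; the sources used here do not say how the allele was made, how old the mice were or how long after the crush ganglia were taken. Ganglia were lysed as whole tissue with several ganglia pooled, so neurons, glia, vessels and immune cells are mixed, and fewer cells of a type cannot be told apart from less open DNA per cell. Because the files give 1 list per group, the variation among animals is not known and the genotypes were compared without a test. Intervals below are 95% intervals that cover counting error only. The read depth behind the lists is unknown.

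As background, sensory neurons of these ganglia regrow a crushed peripheral axon by switching on a set of regeneration-associated genes, among them Sox11, and Silc1 is a neuronal long noncoding RNA encoded near Sox11. Open sites at the starts of genes are promoters, which in mammals often lie in CpG islands and tend to be open in many cell types. Open sites within introns or between genes include enhancers, which differ more between cell types and states.

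The promoters in question can be read directly. Shown are the 250 bases before the annotated start of 6 genes, 5′ to 3′ on the gene's strand, from RefSeq on assembly GRCm38.p6, which is the same build as the mm10 of the files. Capitals mark matches, on either strand, to the AP-1 site TGANTCA, the partial CRE motif TGACGT, the GC box GGGCGG, the ETS core CCGGAA, the CCAAT box, the E-box CACGTG and the partial NRF1 motif GCGCATG, and overlapping matches run together. Tnfaip2 and Nop2 were chosen because only the wild-type injured list has a summit there, at chr12:111442604 and chr6:125131791.
Tnfaip2: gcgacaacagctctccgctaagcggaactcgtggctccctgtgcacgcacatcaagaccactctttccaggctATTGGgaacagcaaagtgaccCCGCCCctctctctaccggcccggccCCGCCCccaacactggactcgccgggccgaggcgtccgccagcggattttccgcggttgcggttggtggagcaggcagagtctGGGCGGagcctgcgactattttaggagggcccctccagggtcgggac
Nop2: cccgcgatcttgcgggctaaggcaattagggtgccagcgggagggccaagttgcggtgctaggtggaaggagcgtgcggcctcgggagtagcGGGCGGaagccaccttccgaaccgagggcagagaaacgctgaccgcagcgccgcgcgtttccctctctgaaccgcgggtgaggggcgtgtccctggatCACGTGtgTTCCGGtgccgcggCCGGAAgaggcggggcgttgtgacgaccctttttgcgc
Gabra2 and Rims1, a GABA receptor subunit and a presynaptic scaffold, have a summit in the Silc1-/- injured list alone, at chr5:71096131 and chr1:22806213.
Gabra2: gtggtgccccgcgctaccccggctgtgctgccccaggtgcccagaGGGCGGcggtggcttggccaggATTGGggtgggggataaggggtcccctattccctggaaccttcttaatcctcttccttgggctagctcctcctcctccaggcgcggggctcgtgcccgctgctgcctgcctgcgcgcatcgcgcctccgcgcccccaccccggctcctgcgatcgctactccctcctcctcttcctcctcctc
Rims1: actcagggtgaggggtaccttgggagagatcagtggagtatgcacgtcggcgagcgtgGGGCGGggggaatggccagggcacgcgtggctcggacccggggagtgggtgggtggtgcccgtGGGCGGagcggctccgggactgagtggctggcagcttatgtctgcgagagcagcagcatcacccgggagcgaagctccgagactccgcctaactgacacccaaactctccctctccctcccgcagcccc
Fmr1 and Clstn2 are open in both lists but at very different ranks, Fmr1 far higher in wild type and Clstn2 among those higher in Silc1-/-.
Fmr1: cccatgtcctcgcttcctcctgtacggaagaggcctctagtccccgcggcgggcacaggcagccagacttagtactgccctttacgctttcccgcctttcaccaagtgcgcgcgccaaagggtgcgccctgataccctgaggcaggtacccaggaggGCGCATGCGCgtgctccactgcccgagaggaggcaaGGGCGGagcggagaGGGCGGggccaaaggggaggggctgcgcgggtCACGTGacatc
Clstn2: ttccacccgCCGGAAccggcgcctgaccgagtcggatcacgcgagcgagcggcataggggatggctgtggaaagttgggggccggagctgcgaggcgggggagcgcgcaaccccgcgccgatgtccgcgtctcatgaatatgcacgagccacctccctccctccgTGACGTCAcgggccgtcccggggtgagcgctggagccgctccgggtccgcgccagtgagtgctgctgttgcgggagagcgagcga
These stretches cover chr12:111442411-111442660 (plus strand), chr6:125131633-125131882 (plus), chr5:71095850-71096099 (minus), chr1:22806159-22806408 (minus), chrX:68678291-68678540 (plus) and chr9:98033168-98033417 (minus). All 6 are GC-rich, between 65.6% and 70.8%. The wild-type summits lay 57 bp from the Tnfaip2 start and 92 bp from the Nop2 start, inside the stretches shown, and the Silc1-/- summits 282 bp before the Gabra2 start, just outside it, and 55 bp before that of Rims1.

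The genotypes shared about as many open sites as they did not. As deposited, 59.0% of Silc1-/- summits (58.5 to 59.5) had a partner in wild type and 48.1% of wild-type summits (47.7 to 48.6) had a partner in Silc1-/-, which leaves 14691 summits (41%) and 22733 summits (51.9%) without one. The longer wild-type list can supply more partners, so both lists were also taken at equal length, the 35815 highest scores of each. The score is the peak caller's own significance value. At equal length 54.0% of Silc1-/- and 53.8% of wild-type summits had a partner, and 16461 (46%) and 16554 (46.2%) did not. Of the Silc1-/- summits, 11.7% had the nearest wild-type summit past 200 bp but within 1 kb, 9.19% at 1 to 10 kb and 25.0% farther away. In wild type the same shares were 10.6%, 11.6% and 23.9%. Most unpartnered summits of either list therefore had no summit of the other genotype within 1 kb. Sharing was much the same between the sham-operated lists, both cut to 27279 summits, with 56.8% of Silc1-/- and 57.2% of wild-type summits.

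Where they lie sets the genotypes apart. Summits were placed as gene end (no more than 1 kb from either end of a coding gene or long noncoding RNA gene), inside a gene, or outside genes. Shared summits, whose partners are close by, had the same placement whichever list they were read from, with 47.1% at gene ends in each, 28.4% and 28.5% inside genes and 24.4% outside. Without a partner, 14.6% of Silc1-/- summits (14.0 to 15.1) but 23.2% of wild-type summits (22.5 to 23.8) lay at gene ends, a difference of -8.59 percentage points (-9.42 to -7.75). Outside genes lay 41.5% of the Silc1-/- and 31.3% of the wild-type unpartnered summits, a difference of 10.2 points (9.14 to 11.2), while the shares inside genes were close, 43.9% and 45.5%. With the lists as deposited the gene-end difference among unpartnered summits was -6.15 points and the outside difference 8.38 points.

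The sites of Silc1-/- ganglia were also farther from genes. Over 50 kb from any gene lay 16.1% of its unpartnered summits and 7.07% of those of wild type, and among unpartnered summits outside genes the median distance to the nearest gene was 28.0 kb in Silc1-/- and 14.2 kb in wild type. Among summits with nothing of the other list within 10 kb, 6.71% in Silc1-/- and 18.0% in wild type were at gene ends. The sham-operated lists, cut to 27279 summits each, had the same direction with unpartnered gene-end shares of 17.3% in Silc1-/- and 24.6% in wild type.

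**Figure D1:**
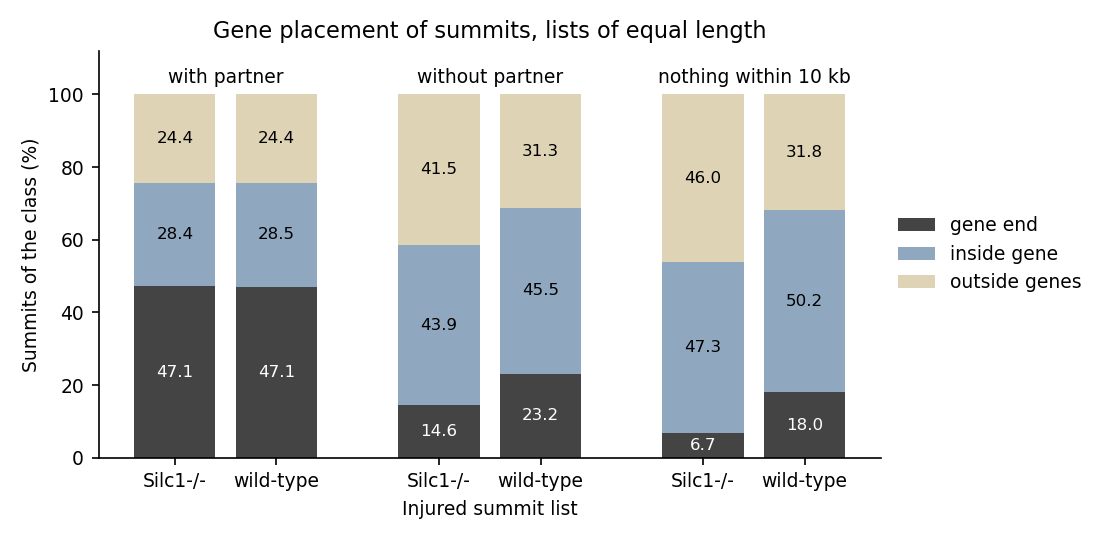
Share of summits (%) at gene ends, inside genes and outside genes in each injured list at equal length, for summits with a partner within 200 bp, without one, and with nothing of the other list within 10 kb. The bars of shared summits look alike, with 47.1% at gene ends in each, while those without a partner show 14.6% in Silc1-/- and 23.2% in wild type.

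The difference was widest among the strongest peaks. Scores were turned into ranks within each list at equal length, where 0% is the highest score. In the top decile of the wild-type list 74.9% of summits were at gene ends, against 47.3% in the top decile of the Silc1-/- list. From the fourth decile down the lists were within a few points of each other, for example 37.1% and 37.7% in the fourth decile and 22.9% and 24.0% in the seventh. In the sham lists the top deciles held 67.3% in wild type and 63.7% in Silc1-/-. The Silc1-/- injured list had the lowest value of the 4.

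Strong peaks were mostly shared. In the top decile 94.2% of wild-type and 86.9% of Silc1-/- summits had a partner, and in the bottom decile 27.7% and 17.1%. The 207 wild-type summits of the top decile without a partner included 34.3% at gene ends, and the 471 of Silc1-/- included 10.0%. When only the 10000 highest scores of each list were matched, 3299 summits of each were left without a partner, and 17.0% of those in Silc1-/- (15.8 to 18.3) but 59.0% of those in wild type (57.3 to 60.6) were at gene ends. Of these, 61.4% and 67.1% did have a partner further down the full list of the other genotype. Many of the differences at high score are thus differences in rank and not in presence.

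**Figure D2:**
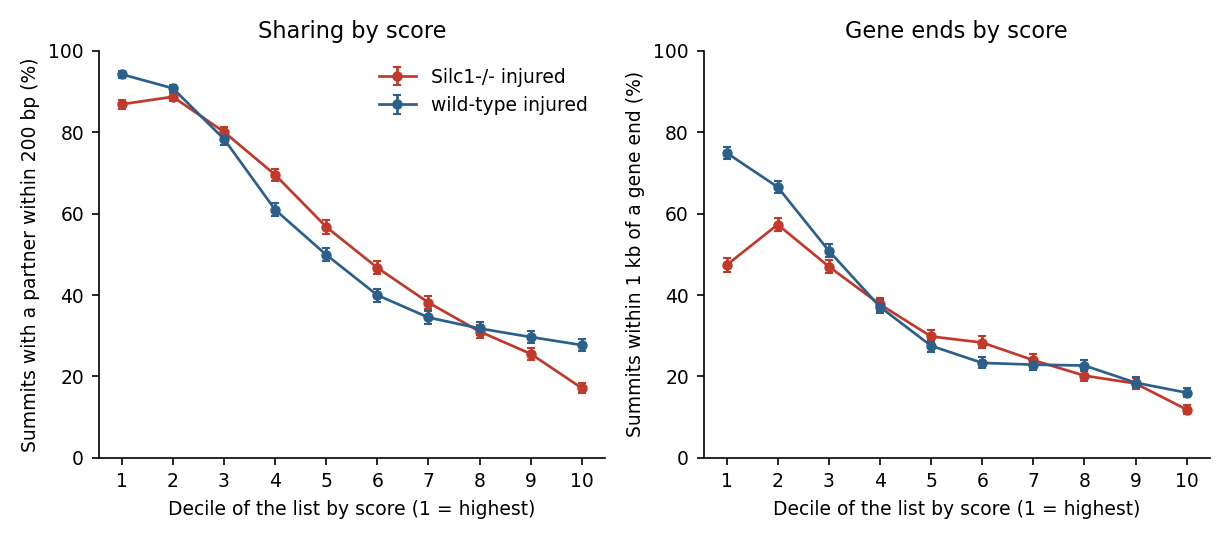
Percent of summits with a partner within 200 bp (left) and percent within 1 kb of a gene end (right) for each decile of the score order, 1 being the highest, in the Silc1-/- (red) and wild-type (blue) injured lists at equal length, with 95% Wilson intervals. Sharing falls from 86.9% and 94.2% to 17.1% and 27.7%, and gene-end shares stand apart in the top deciles, 47.3% against 74.9%.

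The rank of shared sites was compared in the 19204 pairs of summits that were each other's nearest. Their ranks had a Spearman correlation of 0.704 across pairs, given as a description because pairs within the same lists are not independent. Gene-end pairs ranked lower in Silc1-/- and pairs away from genes ranked higher. At gene ends the median rank was 25.2% in Silc1-/- and 18.1% in wild type, the median difference was 4.94 points (4.67 to 5.23), and 73.7% of 9031 pairs ranked higher in wild type. Inside genes the median difference was -3.59 points (-4.81 to -2.87) over 5474 pairs, and outside genes -10.5 points (-11.3 to -9.53) over 4699 pairs, of which 30.0% ranked higher in wild type.

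Promoters with and without a CpG-rich sequence did the same. Pairs at starts with a CpG observed-to-expected ratio of at least 0.6 had a median difference of 4.94 points (n = 6127, 77.1% higher in wild type), and those under 0.6 had 5.51 points (n = 1879, 67.8%). Gene-end pairs on the X chromosome, with a median difference of 9.40 points (n = 186), had the same direction as autosomal ones, with 4.85 points. The sham pairs, measured the same way, had 0.826 points at gene ends (54.8% higher in wild type), -0.00733 inside genes and -0.108 outside. The Silc1-/- injured list was also the one with lower scores, with a median of 4.77 against 7.20 at equal length. The part of depth or of signal quality in these shifts was not tested.

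**Figure D3:**
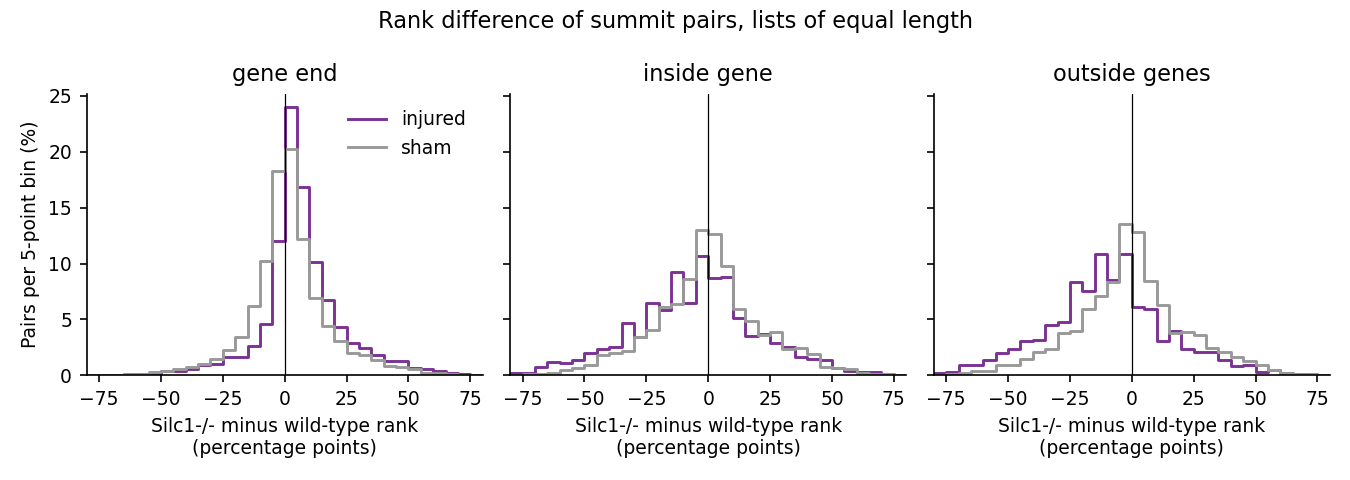
Rank difference of summit pairs (Silc1-/- minus wild type, percentage points of list rank, bins of 5 points) at gene ends, inside genes and outside genes, for the injured lists (purple) and the sham lists (grey), each cut to equal length. Values right of 0 rank higher in wild type: the injured curve lies right of the sham curve at gene ends (medians 4.94 and 0.826) and left of it outside genes (-10.5 and -0.108).

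Individual sites show what the shift looks like. Of 909 pairs that differed by more than 50 points, 332 ranked higher in wild type and 577 in Silc1-/-; at gene ends the split was the opposite, 173 and 39. Fmr1, which encodes an RNA-binding protein that controls translation at synapses, had summits 4 bp apart at rank 14.6% in wild type (score 27.4) and 93.4% in Silc1-/- (score 1.91). Tex10 had scores of 34.1 in wild type and 1.91 in Silc1-/-. Ndufb6, a subunit of mitochondrial complex I, had 26.4 and 1.91.

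Arc, an activity-induced gene of neurons, had a score of 17.5 in wild type and 1.38 in Silc1-/-, with summits 28 bp apart. A site 21379 bp from Tlr2, an innate immune receptor, was the pair with the largest shift towards wild type, with scores of 28.7 and 1.90. At all 5 sites the Silc1-/- score was near the lowest of that list, 1.31.

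Sites ranked far higher in Silc1-/- were mostly inside or between genes. A site inside Reln, which encodes a secreted guidance protein, scored 18.0 in Silc1-/- and 3.18 in wild type. Sites inside Sema5b, a semaphorin of axon guidance, and Sgcd, a sarcoglycan, scored 16.0 and 17.0 in Silc1-/- and 3.18 each in wild type. At gene ends the farthest shifts this way included Galnt17, a glycosyltransferase (11.1 and 3.40), and Anxa3, an annexin (16.0 and 3.82). Another lay inside Grik1, a kainate receptor subunit (8.10 and 3.18), near the end of a different gene and far from the ends of Grik1. Each of these wild-type scores lies in the lower part of its list, where many summits share the same value.

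The strongest summits away from gene ends were at the same base in both lists. The highest-scoring pair, at chr2:98666996 and 35603 bp from the nearest gene, scored 33339 in Silc1-/- and 35977 in wild type. Those at chr14:19417300 and chr9:3001445, 67576 and 188824 bp from a gene, were also at an identical base in both. Such scores lie far above the list medians at equal length, 4.77 in Silc1-/- and 7.20 in wild type. The read filters behind the lists are not stated, and whether these summits are open sites was not tested. At gene ends, Lars2 (630 and 601) and Hjurp (78.0 and 210) ranked in the top 1% of both lists.

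Gene ends with a summit in 1 list and nothing of the other within 1 kb were stronger in wild type. The 10 strongest of wild type had scores of 26.4 to 36.6, at ranks 7.87% to 12.5% of the deposited list, and all 10 had a summit within 200 bp in both sham lists. Nfe2, a transcription factor of blood cells, had a summit at chr15:103258469, 66 bp from its end, with the nearest Silc1-/- injured summit 14.3 kb away. Prdm1, a transcriptional repressor of lymphoid and myeloid cells, had one at chr10:44529542, 984 bp from its end. Tnfaip2, a gene induced by tumour necrosis factor, and Traf3ip3, an adaptor of lymphoid cells, had scores of 31.6 and 27.3. The rest included genes of general function, such as Nop2, an rRNA methyltransferase of the nucleolus (27.1), and Pdcd5 (27.9).

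The 10 strongest of Silc1-/- had scores of 7.33 to 10.6, at ranks 21.6% to 31.0%, and 4 of 10 had a summit in both sham lists. Gabra2 scored 9.74 and Rims1 9.42, with the nearest wild-type injured summit 144 kb and 67.9 kb away. The Gabra2 site had a summit in the wild-type sham list 98 bp away, and the nearest in Silc1-/- sham was 257 bp away. Rims1 had a summit in the Silc1-/- sham list 41 bp away and none near it in wild-type sham, where the nearest was 67991 bp away. Spata7 (8.10) and Ctsf, a lysosomal cathepsin (7.91), had summits in both sham lists.

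Without the restriction to gene ends, the 10 strongest wild-type summits with no Silc1-/- summit within 10 kb included 5 at gene ends, those of Nfe2, Prdm1, Tnfaip2, Gm14548 and Pdcd5, and the site 12389 bp from Ifngr2, a subunit of the interferon gamma receptor. The matching 10 of Silc1-/- included 0 at gene ends. Among them were sites inside Grk5, a receptor kinase (42.5), inside the long noncoding RNA Snhg14 (28.1), inside Osbpl8 (24.1), and 28.3 kb from Apba2, a neuronal adaptor of synaptic vesicles (47.4). The wild-type 10 also held a site near Apba2, with a score of 46.0 and 10.6 kb from the Silc1-/- one. Those in Grk5 and Osbpl8 were the 2 of the Silc1-/- 10 with a summit within 200 bp in both sham lists. Of the wild-type 10, 7 had one in both.

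Counted by gene, wild type had the more starts with an open site. Of 21900 protein-coding genes, 9901 had a summit within 1 kb of a start in both lists at equal length, 1518 (6.93%) in wild type alone and 466 (2.13%) in Silc1-/- alone. Long noncoding RNA genes had 597 starts in wild type alone and 268 in Silc1-/- alone. Of the wild-type-alone coding genes, 49.7% had a start summit in wild-type sham and 63.5% in Silc1-/- sham. The sham lists differ in length, 27279 summits in wild type and 48332 in Silc1-/-. Most starts missing from Silc1-/- injured were seen in the sham list of the same genotype. Of the Silc1-/--alone genes 58.8% had one in Silc1-/- sham and 30.7% in wild-type sham.

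Starts open in 1 list alone differed in sequence from those open in both. In the 250 bases before the start, the median GC content was 61.6% for genes with a summit in both lists, 57.6% in wild type alone, 59.2% in Silc1-/- alone and 48.4% in neither. A CpG ratio of at least 0.6 was found in 77.7%, 49.0%, 42.8% and 12.6% of these promoters. The GC box, GGGCGG, bound by Sp factors, was present in 64.9% of promoters of the both class, 50.9% for wild type alone, 46.8% for Silc1-/- alone and 42.6% of all coding promoters. CCGGAA, the core of ETS sites, was in 25.7%, 14.1% and 9.46%, beside 15.0% of all. TGANTCA, the AP-1 site, was in 3.35%, 5.83% and 4.95%, beside 6.13% of all. Promoters of the single-list classes therefore lay between the shared ones and those with a summit in neither list in GC content. The intervals of the single-list classes overlapped widely for AP-1 (4.74 to 7.15 and 3.29 to 7.39). For ETS they met only at their edges (12.4 to 15.9 and 7.07 to 12.5). Overlap of separate intervals does not show that the shares are equal, and their difference was not tested. A match describes the letters and does not show binding.

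Each summit was also given to its nearest gene, and a gene was called when the lists differed by at least 3 summits and 2-fold at equal length. Of 20388 genes with a summit, 579 (2.84%) had more in wild type and 647 (3.17%) more in Silc1-/-. As deposited the order was the opposite, with 1145 genes with more in wild type and 350 with more in Silc1-/-, and it also turned at equal length when a difference of 2 summits was enough (1721 and 1634) or only genes within 10 kb counted (466 and 366). The called genes were long, with a median of 51.1 kb for those with more in wild type and 63.9 kb for those with more in Silc1-/-, beside 20.2 kb for all genes with a summit.

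Several long genes had many additional summits in wild type. Sgms1, a sphingomyelin synthase, had 6 summits in Silc1-/- and 18 in wild type. Entpd1, the ectonucleotidase CD39, had 1 and 10, as did Tnfaip8 and Chd7, a chromatin remodeller. Pde4d, a cAMP phosphodiesterase, had 8 and 19, and Itpr1, the IP3 receptor, 6 and 15.

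Other genes had more in Silc1-/-. Celf2, an RNA-binding splicing factor, had 19 summits in Silc1-/- and 6 in wild type, and Ncald, a neuronal calcium sensor, had 10 and 0. Pcdh11x, a protocadherin, and Slc6a15, a neutral amino acid transporter of neurons, had 11 and 2 each. Nkain3 had 20 and 8. Snhg14, the long noncoding RNA across the Ube3a region, had 63 and 47, and 4932411N23Rik had 25 and 15, both under 2-fold. As deposited wild type held 82 and 26 at these genes. It then held 14 summits at Celf2 and 15 at Nkain3, so that both were under 2-fold as well. At Slc6a15, Pcdh11x and Ncald it held 5, 3 and 1.

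Fixed lists of genes for the cells and programmes of the ganglion were set beside all coding genes, of which 15196 had a summit, 5101 (33.6%) with more in wild type and 4324 (28.5%) with more in Silc1-/-, by any margin, with a median difference of 0. The lists of neutrophil and macrophage genes stood towards wild type. Of 15 neutrophil genes 12 had a summit, 10 of them had more in wild type and 0 more in Silc1-/-, and the list summed to 4 summits in Silc1-/- and 22 in wild type. The median difference was 1 summit. Retnlg, Mmp9 and Cebpe, a secreted granule protein, a matrix protease and a granulocyte transcription factor, each had 0 and 3. Start summits in wild type alone were found for 6 of the 15, which were S100a9, Retnlg, Mmp8, Lcn2, Csf3r and Cebpe, and Lcn2, lipocalin 2, was the strongest of them with a score of 11.7. The granule enzymes Mpo and Elane had no nearest summit in either list. Of 20 macrophage genes 14 had a summit, 9 with more in wild type and 3 with more in Silc1-/-, 26 and 38 summits in all; Itgam and Spi1, an integrin and the myeloid factor PU.1, had 2 and 5 each, and C1qa, C1qb, C1qc and Cd68 had none in either list. T, NK and B cell genes summed to 18 in each list. Of 9 with a summit, 4 had more in wild type and 1 more in Silc1-/-. The latter was Ebf1, with 7 summits in Silc1-/- and 3 in wild type. Whether the number of immune cells differed between these ganglia, and its part in the other results, was not tested.

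Schwann cell genes often had a start summit in 1 list alone, in either direction. Of 20 Schwann cell and myelin genes, 7 (35%) had one in wild type alone, beside 6.93% of coding genes. Silc1-/- alone had 2 (10%), beside 2.13% of coding genes, and 4 had one in both lists. Of the 7, Ngfr, the low-affinity neurotrophin receptor, scored 11.2 at its start and Cnp, a myelin enzyme, 9.09. Pou3f1, a factor of promyelinating Schwann cells, scored 7.31 and S100b 4.75. The others of the 7 were Ncam1, Ugt8a and Erbb3. The starts found in Silc1-/- alone were those of Pmp22, a myelin protein (3.99), and Gldn (1.91). The nearest-gene summits of the Schwann cell and myelin list summed to 28 in Silc1-/- and 35 in wild type. Of its 13 members with a summit, 7 had more in wild type (53.8%, beside 33.6% of all coding genes). More in Silc1-/- was found for 1 (7.69%, beside 28.5%). Satellite glia genes summed to 20 and 15, and as deposited to 20 and 22, with start summits of Kcnj10, Sox2 and Sparc in wild type alone and Ptn in Silc1-/- alone.

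In the neuronal lists the direction turned with the way summits were counted. Channels and receptors of sensory neurons were the list with the most additional Silc1-/- summits, 74 against 57, with 11 of 24 members higher in Silc1-/- and 9 in wild type. Cacna2d1, the calcium channel subunit bound by gabapentin, had 8 and 4, Piezo2, the touch channel, 6 and 3, and Kcnb2, a potassium channel, 6 and 3. As deposited, where wild type has the longer list, the sums were 74 and 79, and within 50 kb of a gene end at equal length they were 82 and 89. All coding genes moved towards wild type with the same counts. Their sums were 27944 in Silc1-/- and 28695 in wild type at equal length. They were 27944 and 34696 as deposited, and 72288 and 82006 within 50 kb at equal length. The turn is therefore not particular to the neuronal lists. Start summits in Silc1-/- alone included those of Scn10a, the sodium channel of nociceptors (3.09), and Kcna2 (3.33), and Kcna1 had one in wild type alone (4.79). Sensory neuron factors and markers summed to 49 in Silc1-/- and 45 in wild type, but to 49 and 63 as deposited and to 81 and 84 when all summits within 50 kb of a gene end counted. Isl1, a transcription factor of sensory neurons, had 7 and 3, and Elavl4, a neuronal RNA-binding protein, 7 and 2. Pou4f1, another sensory neuron factor, had a start summit in wild type alone (7.47). Of these 30 genes 22 had a summit in either list, and Avil, Sncg, Pvalb and Runx3 had none nearest to them.

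Regeneration and early response genes stood towards wild type in number of members, by few summits each. Of 41 regeneration-associated genes 34 had a summit, with 76 summits in wild type and 65 in Silc1-/-. More in wild type was found for 19 (55.9%, beside 33.6% of all coding genes). More in Silc1-/- was found for 8 (23.5%, beside 28.5%). At starts this list was even, with 2 in wild type alone and 2 in Silc1-/- alone. Klf6, a factor that promotes axon growth, had 1 in Silc1-/- and 4 in wild type, Atf3, the injury marker of sensory neurons, 2 and 4, Stat3 1 and 3, and Gap43, a growth cone protein, 1 and 3. Against that direction, Bdnf, a neurotrophin, had 4 in Silc1-/- and 0 in wild type, and Mmp16 7 and 3. Of 20 immediate-early genes 19 had a summit, 10 with more in wild type (52.6%) and 3 in Silc1-/- (15.8%), and Fos had 5 and 7. Among 18 KLF and SOX genes 15 had a summit, 7 with more in wild type (46.7%) and 2 in Silc1-/- (13.3%). Klf13 had 4 and 7. Of 27 housekeeping genes 8 had more in wild type (29.6%), 2 more in Silc1-/- (7.41%) and 17 as many in each. A lean of this size was not particular to these lists. Fibroblast and perineurial genes had 54.5% with more in wild type and 27.3% with more in Silc1-/-, while spinal cord genes had 20% and 40%.

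**Figure D4:**
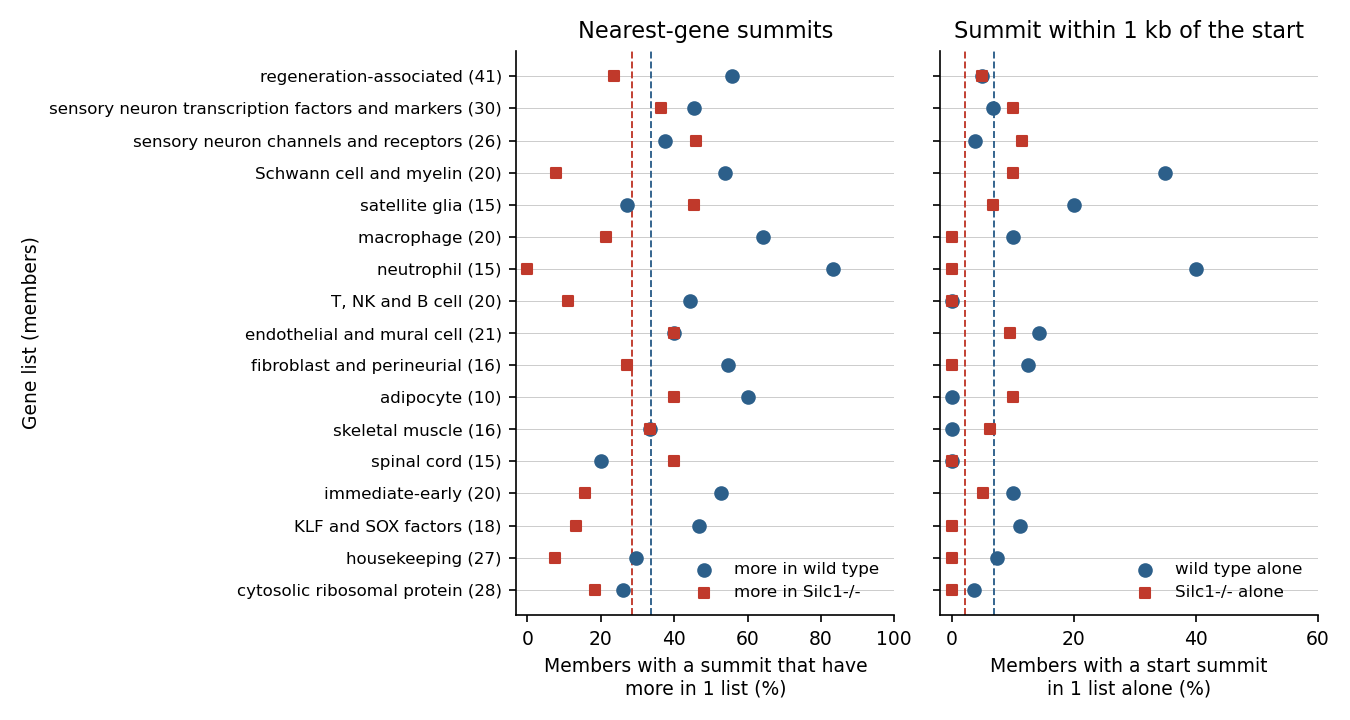
For 17 gene lists (number of members in brackets), the percent of members with a summit that have more nearest-gene summits in wild type (blue circles) or in Silc1-/- (red squares), left, and the percent of members with a start summit in 1 list alone, right, at equal length. Dashed lines are the same shares over all protein-coding genes, 33.6% and 28.5% left and 6.93% and 2.13% right; the neutrophil list is farthest towards wild type on both sides, with 83.3% and 40%.

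At the targeted locus both lists had a site between Silc1 and Sox11 and a site at the Sox11 start. The gene table has no entry under the symbol Silc1, and Gm9866 was taken in its place (chr12:27140796-27160516). The nearest summits of the Silc1-/- and wild-type lists lay 82.5 kb and 82.7 kb from it, so the lists give no check of the genotype labels. They were at chr12:27242985 in Silc1-/- (score 19.9) and chr12:27243189 in wild type (score 22.2), 204 bp apart and so just past the 200 bp that define a partner. The Sox11 start had a summit in both, 63 bp apart, with a score of 5.28 at rank 44.2% in Silc1-/- and 7.44 at rank 48.2% in wild type at equal length. Other summits here had no close counterpart: a Silc1-/- summit at chr12:27054342 (score 5.08) was 188847 bp from the nearest of wild type, and a wild-type summit at chr12:27357156 (score 3.18) was 14370 bp from the nearest of Silc1-/-.

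By chromosome, the Silc1-/- list was fuller where genes are few. At equal length the X chromosome had the highest ratio outside Y, 1259 Silc1-/- summits to 1021 in wild type or 1.23, followed by chromosome 18 at 1.11 and chromosome 14 at 1.06. The gene-rich chromosomes 19, 11 and 7 had 0.877, 0.913 and 0.931. Across the 19 autosomes and X the ratio had a Spearman correlation of -0.710 with the number of genes per Mb, and of -0.661 across autosomes alone; chromosomes of the same lists are not independent, so this is a description. In windows of 1 Mb, 1339 had more Silc1-/- summits, with a median of 8 genes, and 971 more wild-type summits, with a median of 17 genes. The window with the largest difference, chr15:78000001-79000000, held 21 Silc1-/- and 50 wild-type summits.

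**Figure D5:**
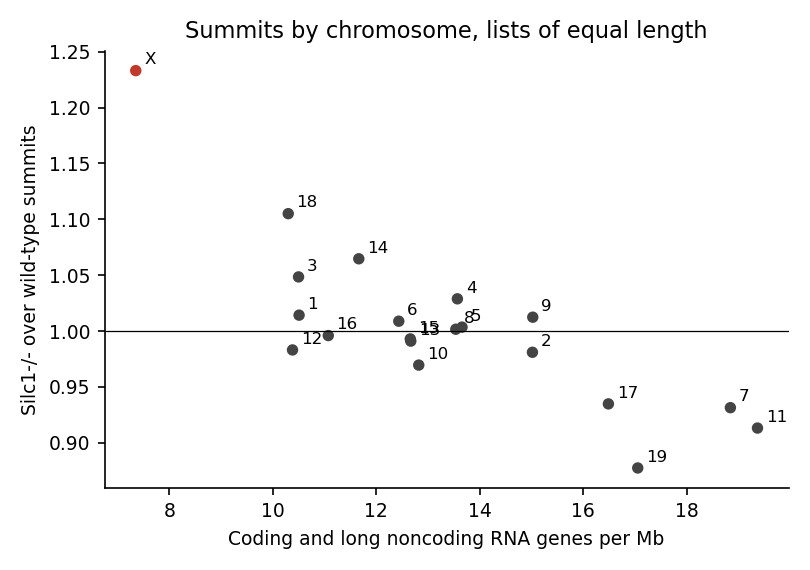
Ratio of Silc1-/- to wild-type injured summits per chromosome at equal length (vertical axis, linear, not starting at 0) against the number of coding and long noncoding RNA genes per Mb, with 1 point for each autosome and X (red) and a line at 1. X lies highest at 1.23 and chromosome 19 lowest at 0.877.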

How the data were processed

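ATAC-seq summit lists of 2 groups with 3 libraries each were compared, 1 list per group, and the 2 sham lists served as background. The submitters' processing notes name Bowtie2, MACS2 and the mm10 build; the sources used here do not state versions, read filters, pooling or any shift for the transposase. The deposited score is −log10 of the peak caller's p-value, or of its q-value, and no header tells them apart. It varies with depth, which is unknown. Ranks were therefore used, at equal length, with tied scores sharing a rank: 14 wild-type summits shared the score at the end of the shortened list and 7 of them were kept. The replicates were not analysed singly, so no test, p-value or paired fit was made.

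A partner lay no more than 200 bp away in the other list. Genes came from RefSeq on GRCm38.p6, 21900 protein-coding and 12727 long noncoding. Starts came from promoter entries, which 27025 genes had; either end was used for the rest. Summits on sequences with no placed gene, 179 in Silc1-/- and 166 in wild type, counted as outside genes. Shares have Wilson intervals, differences of shares Newcombe intervals, and medians order-statistic intervals, all at 95%.

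Named genes are the 10 strongest or most different of each class, examples from each gene list, and Silc1 and Sox11, of which the text gives a part; some items are not reported here. The comparison, the gene lists and this rule were chosen with earlier results of these data known. The steps were tested on simulated lists. Alternatives were other joining distances, list lengths, score minimums, gene-end definitions and gene-count rules, autosomes only, and merging of close summits. Python 3.11.15, numpy 2.4.6, pandas 2.3.3, scipy 1.17.1 and matplotlib 3.10.9 were used.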

Additional observations from a re-analysis of the deposited data

How the results depend on the processing

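The gene-end difference, the rank differences and the counts of starts kept their direction under every alternative tried; which genotype had more called genes did not. The values are given in the order Silc1-/- then wild type. The percent of summits with a partner was 34.5 and 28.2 at a joining distance of 50 bp, 49.1 and 40.1 at 100 bp, 68.0 and 55.9 at 500 bp, and 71.5 and 60.1 at 1000 bp. It was 54.0 and 53.8 at equal length, 60.5 and 60.4 with the 20000 highest scores, 67.0 in each with the 10000 highest, 69.7 and 49.5 at scores of at least 5, and 78.2 in Silc1-/- at scores of at least 10.

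The gene-end difference among unpartnered summits, -6.15 points as deposited, was -2.18, -4.30, -9.67 and -9.99 points at 50, 100, 500 and 1000 bp, so its size depended on the joining distance. It was -8.59 at equal length, -18.1 and -42.0 with the 20000 and 10000 highest scores, and -15.7 and -42.0 at scores of at least 5 and 10. With gene ends within 500 or 2500 bp it was -4.36 and -8.98, with starts only -4.64, and with coding genes only -4.56.

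The median rank difference at gene ends, 4.94 points, was 7.59 and 11.1 with the 20000 and 10000 highest scores, 8.29 and 12.1 at scores of at least 5 and 10, 4.59 on autosomes and 7.69 with lists as deposited. Away from gene ends it was -6.92, and -3.60, -4.94, -8.17 and -8.47 at 50, 100, 500 and 1000 bp. With the 20000 and 10000 highest scores it was -9.59 and -13.6, at scores of at least 5 and 10 -10.3 and -13.3, and as deposited -3.06.

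Called genes numbered 647 in Silc1-/- and 579 in wild type. As deposited the numbers were 350 and 1145. They were 221 and 180 with the 20000 highest scores, 1029 and 2410 when all summits within 50 kb of a gene end counted, and 1634 and 1721 at a difference of 2 summits. Scores of at least 5 gave 49 and 551, and nearest genes within 10 kb 366 and 466. Silc1-/- thus had more called genes only in the reported count and with the 20000 highest scores. Start summits in 1 list alone numbered 200 and 2467 at scores of at least 5.

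No paired analysis was possible because each group has 1 summit list, and leaving out a replicate was not possible either. Depth limits every count: a site missing from a list was not called there, which does not show that it was closed.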
